A study of Mus musculus with 20 samples.

Results

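The 9 genes described here make up a small detoxification group and its genomic neighbour: Glo1, Hagh, Park7, Akr1b3, Akr1a1, Akr7a5, Aldh2, Aldh1a1 and Btbd9. They were chosen by gene symbol, as enzymes that clear reactive carbonyl compounds together with Btbd9, the gene next to Glo1 on chromosome 17. They are 9 of the 39179 genes listed for each mouse, and all 9 were among the 14792 genes expressed highly enough to be tested. RNA was sequenced from the striatum of 20 adult male mice of generation 17 of a breeding experiment, aged approximately 6.5 months. The mice of the High-Active line came from selection for distance traveled in the home cage, and those of the Control line from the same founder population, an intercross of 8 inbred strains. Each line gave 5 mice injected with saline and 5 mice injected with 0.25 mg/kg amphetamine, 2 hours before the striatum was collected. There was 1 line of each kind, so the effect of selection and that of drift between the lines cannot be told apart. The mice are named here by the animal number in the labels. By the parents named in the labels, some mice shared both parents, with 8 families among the 10 Control mice and 5 among the 10 High-Active mice. The paper, in contrast, describes every mouse of a line as coming from its own family.

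The glyoxalase pathway removes methylglyoxal, a reactive by-product of glycolysis that damages proteins and DNA. Glyoxalase 1, the product of Glo1, acts on the adduct that methylglyoxal forms with glutathione, and glyoxalase 2, the product of Hagh, then releases lactate and returns the glutathione. Aldo-keto reductases reduce methylglyoxal and other aldehydes to alcohols, and aldehyde dehydrogenases oxidize aldehydes to acids. In mice, Glo1 is known for its links to anxiety-like behavior, and inbred strains are known to differ in the number of genomic copies of a segment of chromosome 17 that holds it. Genomic DNA was not measured in these samples. Btbd9 encodes a BTB domain protein whose human counterpart is associated with restless legs syndrome.

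In GRCm38 coordinates of the GENCODE annotation, Glo1 (ENSMUSG00000024026) lies on the minus strand at chr17:30584936-30626871. Btbd9 (ENSMUSG00000062202) lies on the same strand at chr17:30215524-30576488, with 8447 bases between the annotated ends of the genes. Hagh (ENSMUSG00000024158) is on the same chromosome, 5.35 Mb from Btbd9, at chr17:24840143-24864450. The other 6 genes are on chromosomes 4, 5, 6 and 19, with Aldh1a1 (ENSMUSG00000053279) at chr19:20492715-20643465 on the plus strand. Glo1 and Aldh1a1, whose levels differed between the lines, had upstream windows of 250 bases in RefSeq (GRCm38.p6), and 1 window of each is shown because it holds the letters CCAAT, the motif of the nuclear factor Y complex, in capitals. The Glo1 window is chr17:30612660-30612909 on the minus strand and the Aldh1a1 window is chr19:20601718-20601967 on the plus strand, both written 5′ to 3′. Each lies before a RefSeq transcript start that is inside the longer GENCODE extent of its gene.
Glo1: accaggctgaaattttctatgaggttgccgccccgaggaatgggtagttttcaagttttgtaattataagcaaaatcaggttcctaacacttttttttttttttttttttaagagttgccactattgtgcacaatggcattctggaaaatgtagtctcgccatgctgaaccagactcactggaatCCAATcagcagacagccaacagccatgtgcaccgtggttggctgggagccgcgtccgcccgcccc
Aldh1a1: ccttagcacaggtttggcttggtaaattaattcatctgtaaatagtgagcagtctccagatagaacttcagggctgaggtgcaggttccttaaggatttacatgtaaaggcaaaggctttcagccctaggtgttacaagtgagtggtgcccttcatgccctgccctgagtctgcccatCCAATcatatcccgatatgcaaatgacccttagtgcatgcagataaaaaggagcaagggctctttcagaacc
The first base of CCAAT stood 65 bases before this transcript start of Glo1 and 72 bases before that of Aldh1a1, in both on the strand of the gene. The other Aldh1a1 window, chr19:20492333-20492582 near the annotated start of the gene, held 0 matches. Searched on both strands, CCAAT was present in 33.8% of the 32851 upstream windows of this length, so its presence in these genes is a description only. A window was found for 6 of the 9 genes, and 4 of their 8 windows held the letters, the other matches lying in both windows of Hagh. The core of the antioxidant response element, TGACNNNGC on either strand, was present in 10.2% of all windows and in 0 of the 8.

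The gene counts of a library summed to 32388971 at the lowest and 53710713 at the highest, the median library holding 41703853.5. Levels are given as CPM, the counts of a gene per 1000000 counts of the library, with library sizes normalized by TMM, so that genes are compared between mice and not with each other. Markers of medium spiny neurons, the principal cells of the striatum, were abundant in every mouse, with a summed level of 5327 to 6794 CPM in Control and 4353 to 7179 CPM in High-Active mice. The summed level of 10 markers of cortical excitatory neurons was 364 to 983 CPM in Control and 198 to 1075 CPM in High-Active mice, lower in High-Active mice by 0.75 on the log2 scale (permutation test, two-sided, p = 0.0290). That of 8 oligodendrocyte markers was higher in High-Active mice by 0.24 on the log2 scale (permutation test, p = 0.0113). These p-values were not adjusted over the marker lists, and the other lists had p of 0.10 or more by the same test. For the cortical markers, the median log2 fold change between the lines was -1.19 among saline and -0.28 among amphetamine mice. None of the cortical or oligodendrocyte marker genes had a median of 0 in any group. In bulk tissue, fewer cells of a type and less RNA per cell cannot be told apart.

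Among the 9 genes, 3 were higher in High-Active than in Control mice: Glo1, Aldh1a1 and Btbd9 passed an FDR of 0.1, and no member was lower. Of all genes tested, 14.5% passed in either direction, 7.63% being higher and 6.9% lower in High-Active mice. In none of the 9 genes were the 10 mice of each line fully separated, a separation found in 0.264% of all genes, in 0.142% with High-Active mice above. Glyoxalase 2, DJ-1, the aldo-keto reductases and mitochondrial aldehyde dehydrogenase did not pass, and their fold changes lay close to 1. Thus the enzymes of the group did not move together between the lines. The tests were edgeR's quasi-likelihood tests on all 14792 genes with Benjamini-Hochberg adjustment (FDR), in which the line effect is the mean over both treatments of High-Active minus Control.

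**Figure D1:**
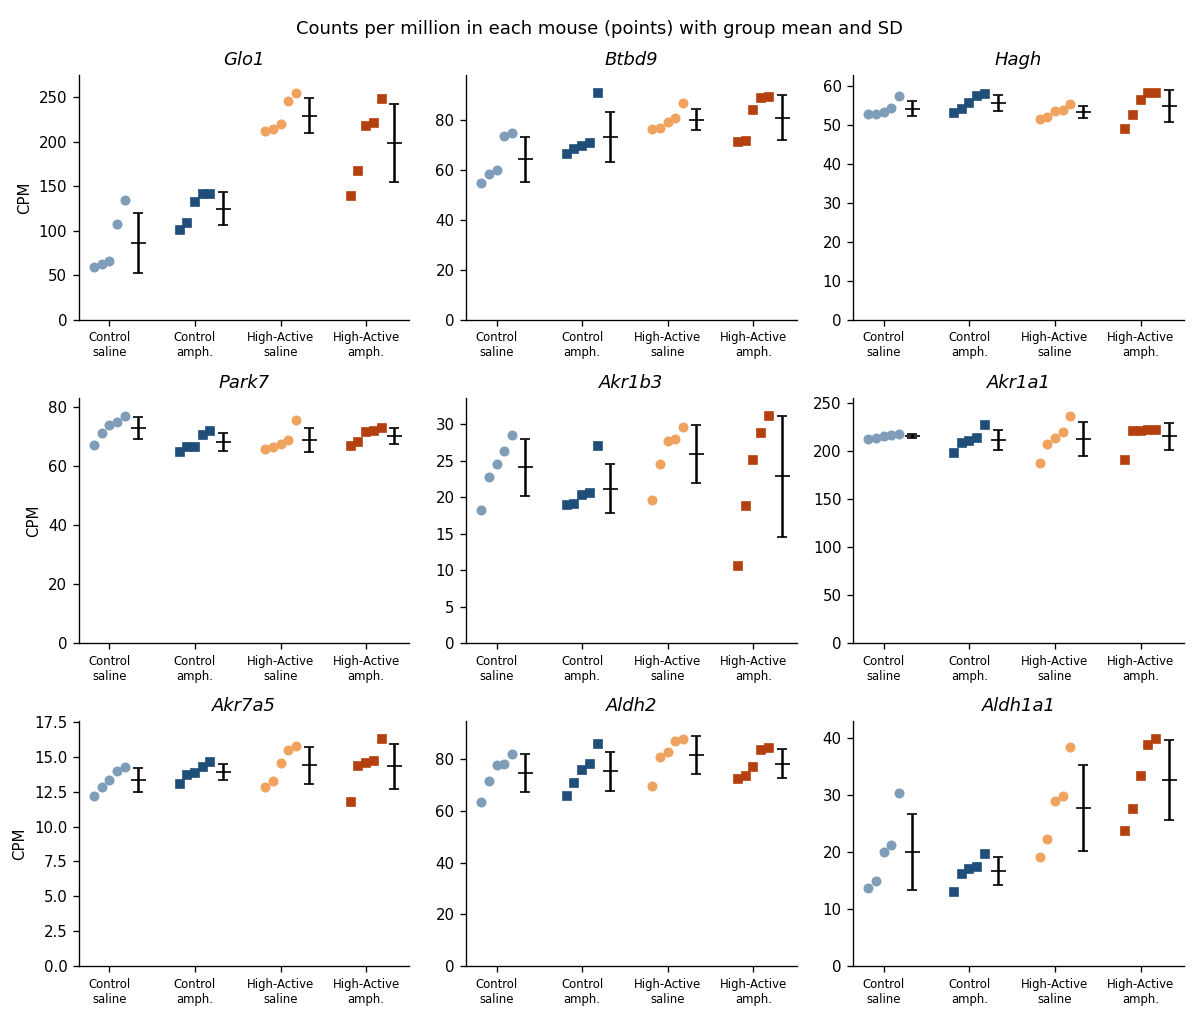
CPM (vertical axes, starting at 0) of the 9 genes in each of the 20 mice (points), by line and treatment, with the mean and SD of each group of 5 mice. Glo1 ran from 59.0 CPM in a Control saline mouse to 255 CPM in a High-Active saline mouse, whereas Hagh stayed between 48.9 and 58.2 CPM in all mice.

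Glo1 was measured at 59.0, 63.2, 66.0, 108 and 135 CPM in the 5 Control saline mice and at 101, 109, 132, 141 and 141 CPM in the Control amphetamine mice. In High-Active mice it was measured at 212, 214, 220, 246 and 255 CPM after saline and at 139, 168, 218, 221 and 248 CPM after amphetamine. Every High-Active mouse but mouse 487, an amphetamine mouse at 139 CPM, was above every Control mouse. The means were 106 CPM ± 32.8 in Control and 214 CPM ± 36.0 in High-Active mice (SD, n = 10), so that the spread relative to the mean was wider in Control mice. The line effect was a log2 fold change of 1.04 (standard error 0.143, 95% interval 0.74 to 1.34, FDR 0.000347), or 2.06-fold. By p-value Glo1 ranked 26 among the 14792 genes. In log2 CPM the groups ran from Control saline through Control amphetamine and High-Active amphetamine to High-Active saline. Control amphetamine and High-Active amphetamine mice, which are neighbours in this order, differed by 0.65 (exact permutation test, two-sided, p = 0.0238, n = 5 per group). The neighbours Control saline and Control amphetamine (p = 0.0794) and the neighbours High-Active amphetamine and High-Active saline (p = 0.254) did not differ beyond the spread of the mice by the exact permutation test.

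Reads of Glo1 could be confused with those of a near-identical copy, which was examined after the data had been seen. Gm13443, named Glo1-ps in RefSeq, is a processed pseudogene of 555 bases on the plus strand at chr2:35340409-35340963. It differs from a Glo1 transcript at 3 bases (99.5% identity), and 281 of its 456 windows of 100 bases, the length of a read, also occur in that transcript. Its level was 14.2 CPM ± 4.59 in Control and 23.1 CPM ± 1.99 in High-Active mice (SD, n = 10), a log2 fold change of 0.70 between the lines (standard error 0.152, FDR 0.0105). With the mean log2 CPM of the cortical and of the oligodendrocyte markers as covariates it was 0.65 (FDR 0.141), which does not pass. The level of the copy was 14.6% of that of Glo1 in Control and 11.0% in High-Active mice, averaged over mice. Summed over both, the means were 120 CPM ± 34.6 in Control and 237 CPM ± 37.5 in High-Active mice. Reads without a unique alignment were left out of the counts of both genes, so the sum does not hold them. From mouse to mouse, the copy and Glo1 had a Pearson r of 0.224 in Control mice (permutation test, p = 0.535, adjusted over 2 relations 0.535) and of 0.77 in High-Active mice (p = 0.0131, adjusted 0.0261), with Spearman rho of 0.285 (p = 0.426, adjusted 0.426) and 0.527 (p = 0.123, adjusted 0.246). Without mice 905 and 487, which are lowest in Glo1, r in High-Active mice was 0.0767, so the relation rests on those mice.

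Within Control mice, Glo1 and Btbd9 moved with the cortical markers, a relation that was tested after the data had been seen. The adjustment given below does not cover the choice among marker lists. As a description, r of Glo1 there was -0.815 with dopamine neuron, 0.757 with astrocyte and -0.584 with endothelial markers. For Btbd9 these values were -0.55, 0.537 and -0.555. With the remaining lists r of Glo1 lay between -0.193 and 0.501. Against the summed cortical markers in log2 CPM, Pearson r was 0.896 for Glo1 (permutation test, p = 0.00200, adjusted over 18 relations 0.0180) and 0.885 for Btbd9 (p = 0.000220, adjusted 0.00396). Spearman rho was 0.636 for Glo1 (p = 0.0551, adjusted 0.346) and 0.891 for Btbd9 (p = 0.00113, adjusted 0.0203). Without mice 448 and 477, those farthest from the median of the marker sum, r was 0.743 for Glo1 and 0.839 for Btbd9. With the mean of each treatment subtracted, r was 0.858 for Glo1 (adjusted p = 0.232) and 0.848 for Btbd9 (adjusted p = 0.117), which do not pass. In High-Active mice r was -0.275 for Glo1 (p = 0.457, adjusted 0.704) and 0.379 for Btbd9 (p = 0.277, adjusted 0.623), with rho of -0.139 (p = 0.708, adjusted 0.797) and 0.358 (p = 0.315, adjusted 0.567). Without mice 192 and 872, the farthest from the median there, r was -0.604 for Glo1 and -0.325 for Btbd9. Between the lines, cortical markers were lower and Glo1 was higher in High-Active mice. The covariates were the mean log2 CPM of the cortical and of the oligodendrocyte markers. With them, the line effect of Glo1 was 1.21 on the log2 scale (FDR 0.00271) and that of Btbd9 was 0.37 (FDR 0.0229). The fit gave each covariate a common slope in both lines, whereas r with the cortical markers differed between the lines. It therefore cannot take out a relation that is present in Control mice only.

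**Figure D2:**
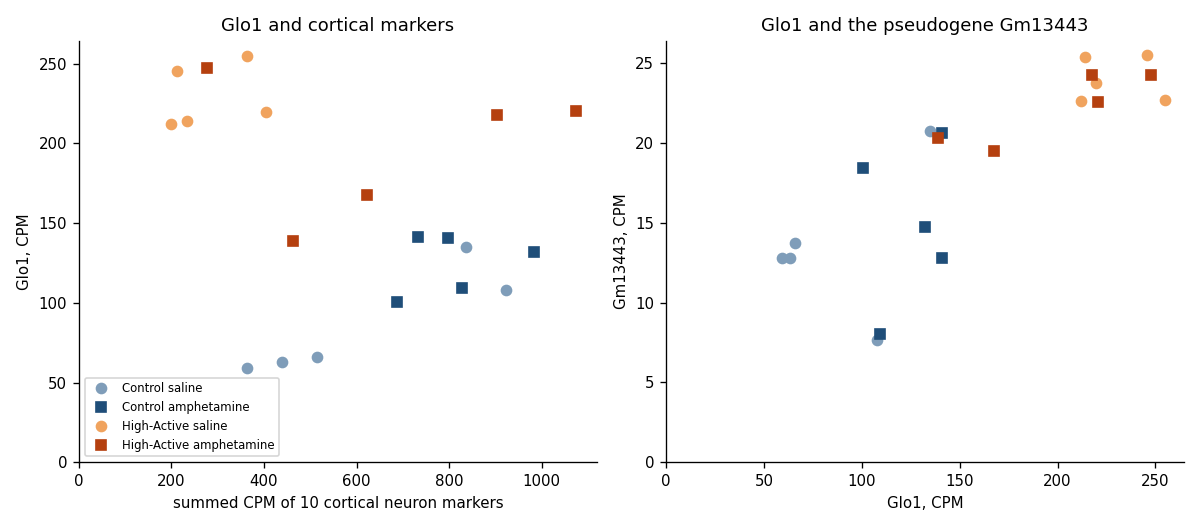
Left, Glo1 (CPM) against the summed CPM of 10 cortical excitatory neuron markers; right, the pseudogene Gm13443 (CPM) against Glo1 (CPM), with 1 point per mouse, coloured by group, and axes starting at 0. Glo1 rises with the markers among Control mice (r 0.896 in log2 CPM). Every High-Active mouse but mouse 487 lies above every Control mouse in Glo1, over a marker range of 198 to 1075 CPM.

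Btbd9, the neighbour of Glo1, was measured at 54.8, 58.3, 59.9, 73.3 and 74.5 CPM in Control saline and at 66.1, 68.4, 69.5, 70.6 and 90.7 CPM in Control amphetamine mice. In High-Active mice the values were 76.3, 76.9, 79.0, 80.6 and 86.8 CPM after saline and 70.9, 71.5, 83.7, 88.8 and 89.2 CPM after amphetamine. The highest value of all came from a Control mouse, mouse 407, so that none of the 10 High-Active mice was above every Control mouse. Among saline mice, all 5 High-Active mice were above all 5 Control mice. The means were 68.6 CPM ± 10.2 and 80.4 CPM ± 6.67 (SD, n = 10), and the line effect was 0.23 on the log2 scale (standard error 0.0694, 95% interval 0.09 to 0.38, FDR 0.0479), or 1.17-fold. The difference in Btbd9 was thus smaller than that in Glo1.

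Hagh, which encodes the second enzyme of the pathway, was nearly constant. It lay between 48.9 and 58.2 CPM in all 20 mice, with means of 55.0 CPM ± 2.04 in Control and 54.1 CPM ± 3.02 in High-Active mice (SD, n = 10). The line effect was -0.02 on the log2 scale (95% interval -0.09 to 0.05, FDR 0.703), an interval that excludes a difference of the size seen in Glo1. The SD of its log2 CPM among Control mice was at percentile 4.27 of all genes tested, against percentile 91.9 for Glo1. Park7 encodes DJ-1, a redox-sensitive protein linked to Parkinson disease for which a glyoxalase activity without glutathione has been described. It ranged from 64.6 to 76.8 CPM, with a line effect of -0.02 on the log2 scale (95% interval -0.09 to 0.05, FDR 0.767).

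The 3 aldo-keto reductases did not pass for the line effect. Akr1a1, aldehyde reductase, ranged from 187 to 236 CPM, with means of 213 CPM ± 7.41 and 214 CPM ± 15.1 in Control and High-Active mice (SD, n = 10) and a line effect of 0.00 on the log2 scale (95% interval -0.08 to 0.09, FDR 0.964). The 5 Control saline mice were within 212 to 218 CPM, a spread at percentile 0.149 of all genes. Akr1b3, aldose reductase, was the most variable of the 3, from 10.6 CPM in High-Active amphetamine mouse 487 to 31.1 CPM in mouse 192 of the same group. Its line effect was 0.11 on the log2 scale (95% interval -0.20 to 0.42, FDR 0.686), an interval too wide to exclude a difference like that of Btbd9. Akr7a5, which reduces aflatoxin aldehyde and succinic semialdehyde, ranged from 11.8 to 16.2 CPM, with a line effect of 0.08 (95% interval -0.04 to 0.19, FDR 0.409).

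Of the aldehyde dehydrogenases, the cytosolic Aldh1a1 was higher in High-Active mice and the mitochondrial Aldh2 was not called. Aldh1a1, which also makes retinoic acid from retinaldehyde, was measured at 13.7, 14.9, 20.1, 21.2 and 30.4 CPM in Control saline and at 13.0, 16.1, 17.1, 17.3 and 19.7 CPM in Control amphetamine mice. The values in High-Active mice were 19.05, 22.3, 28.9, 29.9 and 38.4 CPM after saline and 23.7, 27.5, 33.2, 38.7 and 39.7 CPM after amphetamine. The saline groups overlapped, with High-Active mouse 886 at 19.05 CPM below Control mice 411, 883 and 469 at 20.1, 21.2 and 30.4 CPM. In contrast, every High-Active amphetamine mouse was above every Control amphetamine mouse. The means of the lines were 18.3 CPM ± 5.02 and 30.1 CPM ± 7.29 (SD, n = 10), with a line effect of 0.72 on the log2 scale (standard error 0.149, 95% interval 0.40 to 1.03, FDR 0.00806), or 1.64-fold. Aldh2, which oxidizes acetaldehyde and lipid aldehydes, ranged from 63.3 to 87.7 CPM, with a line effect of 0.09 (95% interval -0.03 to 0.21, FDR 0.322).

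Aldh1a1 marks a subset of midbrain dopamine neurons, whose cell bodies lie outside the striatum. Of the 6 dopamine neuron markers examined, Slc6a3, Pitx3 and En1 had a median under 1 CPM in every group, and the summed level was 12.6 to 27.9 CPM in Control and 14.3 to 32.2 CPM in High-Active mice. Across mice, r between Aldh1a1 and this sum was -0.27 in Control and 0.193 in High-Active mice (n = 10, given as a description). With the sum of 8 choroid plexus markers r was 0.626 in Control and 0.217 in High-Active mice, and this sum ranged from 159 to 1147 CPM and from 201 to 1421 CPM, with Folr1, Kcne2 and Aqp1 under a median of 1 CPM. The part of these cells in the difference was not tested. With the mean log2 CPM of the cortical and of the oligodendrocyte markers as covariates, the line effect of Aldh1a1 was 0.80 (FDR 0.0613). Aldh1a7, its closest relative on chromosome 19, shared only 1 of 1967 windows of 100 bases with Aldh1a1 and was lower in High-Active mice, at 0.695 CPM ± 0.282 against 1.58 CPM ± 0.729 in Control mice (SD, n = 10, log2 fold change -1.18, FDR 0.0209). The difference between the lines was -0.888 CPM in Aldh1a7 and 11.8 CPM in Aldh1a1. Whether reads were assigned to the wrong gene of this pair was not tested.

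**Figure D3:**
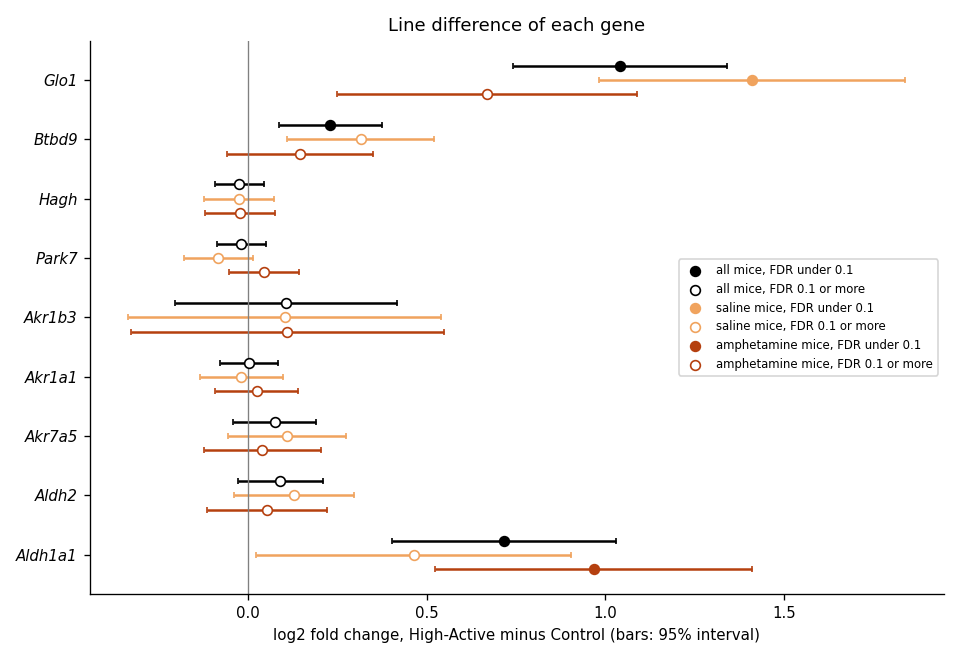
Log2 fold change between the lines (High-Active minus Control, horizontal axis) of each of the 9 genes, over both treatments and within saline and amphetamine mice, with 95% intervals from the edgeR fit. Over both treatments the intervals of Glo1 (0.74 to 1.34), Aldh1a1 (0.40 to 1.03) and Btbd9 (0.09 to 0.38) lie above 0, and those of the other 6 genes include 0.

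The line difference was also estimated within each treatment. Among saline mice, 1 of the 9 genes passed, where 3.74% of all genes passed, 1.99% higher and 1.75% lower: Glo1, at a log2 fold change of 1.41 (standard error 0.204, FDR 0.00286). Btbd9 was 0.32 (FDR 0.108) and Aldh1a1 0.46 (FDR 0.262) on the same scale. Glo1 and Btbd9 were the members whose saline groups did not overlap, with High-Active mice above (exact permutation test, p = 0.00794, the smallest that 5 against 5 mice allow). Such separation was seen in 2.24% of all genes. Among amphetamine mice, 1 of the 9 genes passed, where 1.3% of all genes passed, 0.656% higher and 0.649% lower: Aldh1a1, at 0.97 (standard error 0.212, FDR 0.0474). This gene also separated the groups (exact permutation test, p = 0.00794), as did 1.47% of all genes with High-Active mice above. Glo1 was 0.67 (FDR 0.160), where 4 of 5 High-Active values exceeded all Control values, and Btbd9 was 0.15 (FDR 0.541). The call of Aldh1a1 among amphetamine mice was lost without Control mouse 409 (FDR 0.115), High-Active mouse 415 (FDR 0.138) or Control mouse 457 (FDR 0.104), and with the marker covariates (FDR 0.102). Btbd9 among saline mice passed with DESeq2 (FDR 0.0448), the likelihood-ratio test (0.0116), limma-voom (0.0983) and the marker covariates (0.0643), and Glo1 among amphetamine mice passed with DESeq2 (0.0387) and the likelihood-ratio test (0.00038).

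Amphetamine changed none of the 9 genes at an FDR of 0.1, neither over both lines nor within a line, and 0.0% of all genes passed in each of these comparisons. At an unadjusted p under 0.05, the count among the 9 genes was 0 over both lines, 2 within Control mice and 0 within High-Active mice, where 12.5%, 6.35% and 8.43% of all genes had such a p. The 2 genes were Glo1, with a log2 fold change of 0.53 after amphetamine (p = 0.0159 by edgeR, exact permutation test p = 0.0794), and Park7, at -0.10 (p = 0.0497 by edgeR, exact permutation test p = 0.0714). DESeq2 and limma-voom called none of the 9 in any of these comparisons. The likelihood-ratio test with robust dispersions called Glo1 in Control mice, at 0.77 (FDR 0.00197).

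The interaction, the High-Active response to amphetamine minus the Control response, was called in none of the 9 genes and in 0.0% of all genes by the quasi-likelihood test. At an unadjusted p under 0.05 the count was 1, where 2.97% of all genes had such a p: for Glo1 the interaction was -0.74 (standard error 0.284, FDR 1.0, unadjusted p = 0.0170 by edgeR, exact permutation p = 0.0186), the response being 0.53 in Control and -0.21 in High-Active mice. In log2 CPM the difference of the responses, the value of that permutation test, was -0.84. Only the likelihood-ratio test called it, at -0.95 (FDR 0.0426), while DESeq2 and limma-voom did not. The authors also used likelihood ratios with robust dispersions in edgeR, and they reported Glo1 among the genes with an interaction at an FDR under 0.1. For the other members the interaction was -0.17 in Btbd9 (exact permutation p = 0.255), 0.50 in Aldh1a1 (exact permutation p = 0.1498) and 0.13 in Park7 (exact permutation p = 0.0575). Aldh1a1 therefore had the opposite sign to Glo1, without passing the test. In Glo1, the Control saline mice 477, 448 and 469 lay at 59.0 to 66.0 CPM below the other 2 mice of the group, and the High-Active amphetamine mice 487 and 905 lay below the other 3 of theirs. Among Control mice the cortical marker sum was lowest in the same mice 477, 448 and 469, at 364 to 514 CPM. Its median was 514 CPM in Control saline, 797 in Control amphetamine, 233 in High-Active saline and 623 in High-Active amphetamine mice. Over the 7 other settings, among them the fit with cortical and oligodendrocyte markers as covariates, the interaction of Glo1 ran from -0.95 to -0.73. That fit gave each covariate a common slope in both lines, and the part of the cortical markers in the interaction was otherwise not tested.

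Among mice of the same parents, 6 families gave both a saline and an amphetamine mouse. In the 2 Control families, the amphetamine minus saline difference of Glo1 was -0.10 and 1.06 in log2 CPM, so that these families did not share a direction. In the 4 High-Active families it was -0.62, -0.60, -0.05 and 0.17. For Aldh1a1 the corresponding differences ran from -0.62 to 0.40 in the Control families and from -0.31 to 1.06 in the High-Active families. When each family entered as the mean of its mice, the line difference was 1.05 for Glo1 (exact permutation test of 5 against 8 families, p = 0.00155), 0.27 for Btbd9 (p = 0.00544) and 0.74 for Aldh1a1 (p = 0.00544).

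Whether other enzymes followed Glo1 from mouse to mouse was tested within each line, in 16 relations of log2 CPM with 10 mice each. Of the detoxification enzymes none passed, and Btbd9 in Control mice was the only relation with an adjusted p under 0.1. There Pearson r was 0.82 (permutation test, p = 0.00223, adjusted 0.0357) and Spearman rho was 0.733 (p = 0.0200, adjusted 0.217). Without mice 448 and 477, the farthest from the median of Glo1, r was 0.679. With the treatment means subtracted, r was 0.76 (adjusted p = 0.381), which does not pass. Leaving out mouse 448, 469 or 477 raised the adjusted p to 0.122, 0.137 and 0.165. In High-Active mice r of Btbd9 with Glo1 was 0.664 (p = 0.0300, adjusted 0.160) and rho was 0.612 (p = 0.0677, adjusted 0.217), but without mice 905 and 487 r was -0.0722, so the relation there rests on those mice.

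For Hagh, r with Glo1 was 0.601 in Control mice (permutation test, p = 0.0652, adjusted 0.209) and 0.274 in High-Active mice (p = 0.444, adjusted 0.710), with rho of 0.648 (p = 0.0486, adjusted 0.217) and 0.0788 (p = 0.839, adjusted 0.925). Without the same mice these values of r were 0.357 and -0.391. Aldh1a1 was higher in the same line as Glo1, but its relation to Glo1 within lines did not pass. Its r was 0.0476 in Control mice (p = 0.899, adjusted 0.899) and 0.171 in High-Active mice (p = 0.649, adjusted 0.819), with rho of 0.261 (p = 0.471, adjusted 0.579) and 0.285 (p = 0.428, adjusted 0.570), and without the same mice r was -0.547 and 0.551. Akr1b3 had opposite signs in the lines, at -0.706 in Control mice (p = 0.0298, adjusted 0.160) and 0.662 in High-Active mice (p = 0.0535, adjusted 0.209), with rho of -0.552 (p = 0.105, adjusted 0.280) and 0.345 (p = 0.329, adjusted 0.571). Without the same mice its r was -0.575 and -0.0812. The relations of Park7, Akr1a1, Akr7a5 and Aldh2 to Glo1 had an adjusted p of 0.578 or more for r.

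**Figure D4:**
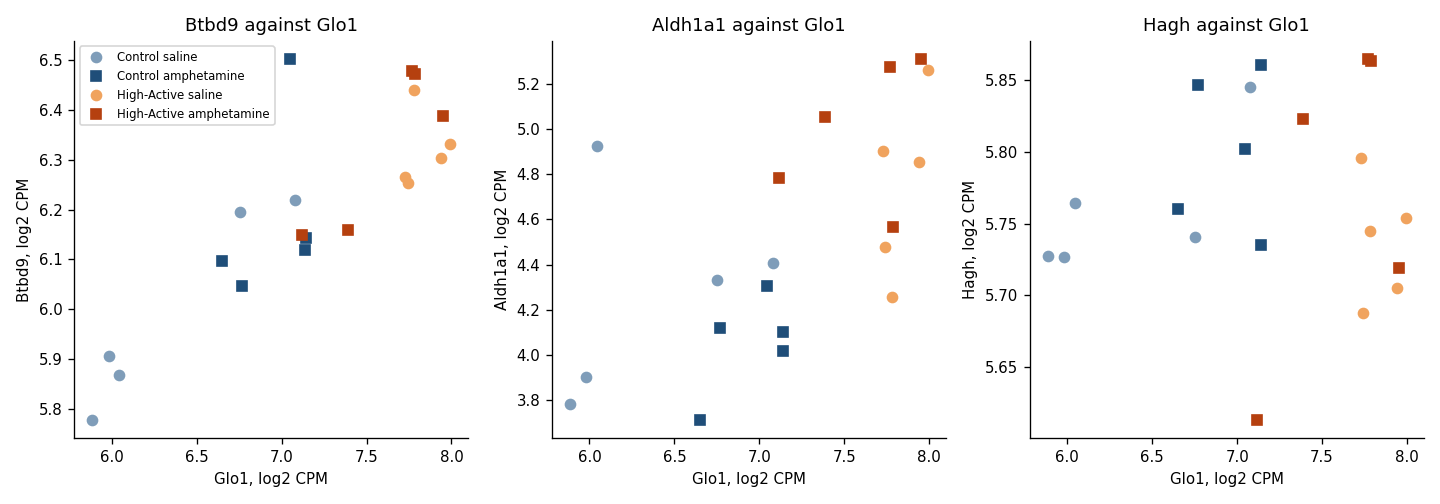
Btbd9, Aldh1a1 and Hagh (vertical axes, log2 CPM) against Glo1 (horizontal axes, log2 CPM), with 1 point per mouse, coloured by group. Btbd9 rises with Glo1 among Control mice (r 0.82), whereas r of Aldh1a1 with Glo1 is 0.0476 there.

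Over all 20 mice, in which the difference between the lines is included, the genes most like Glo1 in log2 CPM were Cyp4f16 (r 0.876), Btbd9 (0.849), Adck1 (0.845), H1fx (0.820) and Rps13-ps2 (0.817). Btbd9 thus ranked 2 of 14791 genes, and Cyp4f16 is also on chromosome 17. With the mean of each group subtracted, they were Emc3 (0.776), Mfsd12 (0.775), Btbd9 (0.763), Slc37a3 (0.761) and Gadd45a (0.755), with Btbd9 at rank 3. The detoxification enzymes ranked far lower over the 20 mice: Aldh1a1 at 179 (r 0.625), Akr7a5 at 1706 (0.363), Aldh2 at 3804 (0.205), Hagh at 5882 (0.0805), Akr1b3 at 5925 (0.0778), Akr1a1 at 6189 (0.0631) and Park7 at 10723 (-0.197). These values describe the libraries, since the mice share lines, treatments and parents.

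Around Glo1, the annotation places 37 genes within 1 Mb, Glo1 included, of which 20 were tested. Besides Glo1 and Btbd9, 2 of the other 18 were higher and 2 were lower in High-Active mice, where 7.63% of all genes were higher and 6.9% lower. Dnah8, an axonemal dynein heavy chain gene on the other side of Glo1, was at 1.71 CPM ± 0.660 in Control and 4.11 CPM ± 1.19 in High-Active mice (SD, n = 10), with a log2 fold change of 1.25 (FDR 0.00180). Its annotated extent overlaps that of Glo1 by 2518 bases on the opposite strand. The strand setting of the counting is not given in the sources used here, so reads in the overlap cannot be assigned with certainty. Glp1r, the receptor of glucagon-like peptide 1 and the next tested gene, was at 1.30 CPM ± 0.515 in Control and 2.51 CPM ± 0.892 in High-Active mice, with a log2 fold change of 0.90 (FDR 0.0127). With the marker covariates Glp1r was not called (0.73, FDR 0.242), and Dnah8 was (1.19, FDR 0.0511). The interaction of Glp1r was -1.21 (FDR 1.0), and that of Dnah8 was -0.21. Thus the genes higher in High-Active mice in this interval, from Btbd9 through Glo1 and Dnah8 to Glp1r, lie next to each other among the genes tested. The tested gene beyond Btbd9, Zfand3, had a line effect of 0.02, and the one beyond Glp1r, Abcg1, of -0.01. Cmtr1, an mRNA cap methyltransferase gene, was lower (log2 fold change -0.20, FDR 0.0691, 26.3 CPM ± 3.14 against 23.0 CPM ± 1.86). Ubash3a, a regulator of T cell signalling, was lower at very low levels (1.23 CPM ± 1.06 against 0.246 CPM ± 0.725, log2 fold change -3.67, standard error 1.20, FDR 0.0650). With 1 mouse left out in turn, Cmtr1 was called in 18 and Ubash3a in 16 of 20 fits. None of the 18 was called for the interaction. For 2 of them, Glp1r and Ubash3a, its unadjusted p was under 0.05, as in 2.97% of all genes.

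**Figure D5:**
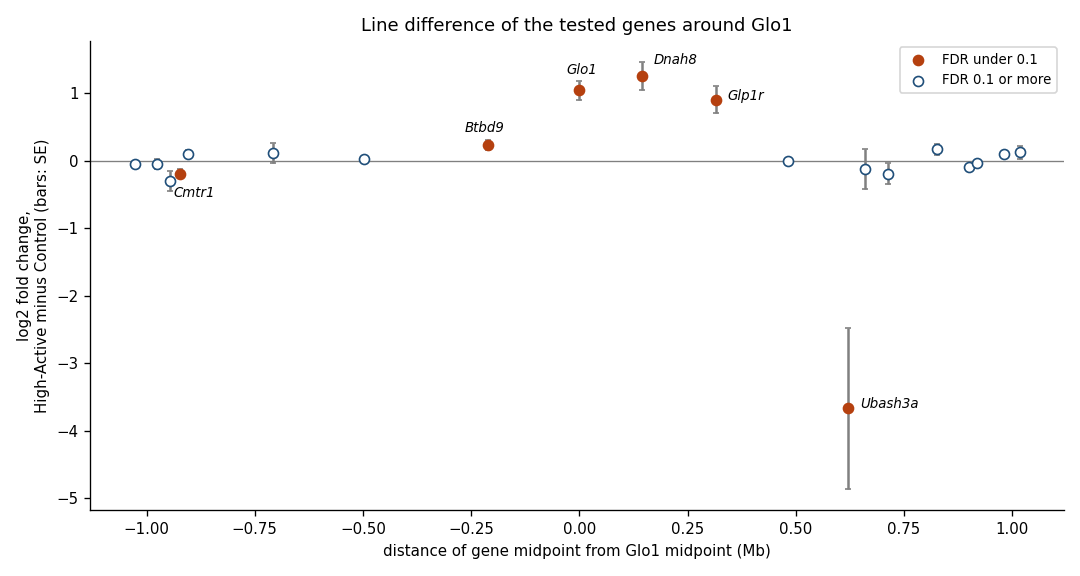
Log2 fold change between the lines (High-Active minus Control, vertical axis, bars show the standard error) of the tested genes within 1 Mb of Glo1, against the distance of their midpoints from that of Glo1 in Mb. Btbd9 (0.23), Glo1 (1.04), Dnah8 (1.25) and Glp1r (0.90) lie above 0 beside each other, while most other genes lie near 0.

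Other enzymes of carbonyl and glutathione metabolism were examined as lists. Of 117 further genes, 88 were tested, and 10 were higher and 6 lower in High-Active mice. This was 18.2% of the 88, against 14.5% of all genes, with a median log2 fold change of 0.02. No gene of the 88 was called for the interaction, and none had an unadjusted p under 0.05 for it, against 2.97% of all genes.

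Among the 17 tested aldehyde dehydrogenases, members included, 3 were higher and 2 lower, with a median of 0.08 on the log2 scale. Besides Aldh1a1 and Aldh1a7, Aldh1l1, the folate enzyme of astrocytes, was higher, at 49.1 CPM ± 4.28 against 39.2 CPM ± 5.22 (log2 fold change 0.32, FDR 0.0120). Its mitochondrial relative Aldh1l2, named although it fell outside the 4 genes given per list, was higher as well (0.42, FDR 0.0364). Aldh7a1, which acts in lysine breakdown, was lower, at 37.9 CPM ± 2.77 in High-Active against 57.6 CPM ± 15.6 in Control mice (-0.60, FDR 0.00731).

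Among the 10 aldo-keto and carbonyl reductases tested, Akr1b10 was higher (0.30 on the log2 scale, FDR 0.0772, called in 8 of the 20 fits that leave out 1 mouse) and Cbr3, a carbonyl reductase, was lower (-0.43, FDR 0.0117), with a median of 0.09. Of 3 genes of alcohol dehydrogenases and S-formylglutathione hydrolase, Adhfe1 was higher (0.22, FDR 0.0312), with a median of 0.03. Among the 10 tested relatives of glyoxalases 1 and 2, Glo1 itself and Glod4, a glyoxalase domain gene, were higher (Glod4 0.28, FDR 0.0465), and Haghl, a relative of Hagh, was lower (-0.37, FDR 0.0482). The median of these 10 was 0.00.

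Of the 21 genes of glutathione synthesis and recycling, 1 was higher, the 5-oxoprolinase gene Oplah (0.21, FDR 0.0879, called in 5 of the 20 fits that leave out 1 mouse, and not without the filter or with limma-voom), and none was lower, with a median of 0.03. Among 17 glutathione S-transferases, the microsomal Mgst1 (0.52, FDR 0.0275) and Gstt1 (0.41, FDR 0.0471) were higher and none was lower, with a median of 0.10. In glycolysis, the source of methylglyoxal, 2 of 17 genes were higher and 2 lower, with a median of -0.05. The enolase gene Eno1 was at 414 CPM ± 70.9 in High-Active and 274 CPM ± 37.7 in Control mice (SD, n = 10, log2 fold change 0.60, FDR 0.00189), and 9 of the 10 High-Active values exceeded all Control values. The aldolase gene Aldoc was also higher (0.19, FDR 0.0653, called in 13 of the 20 fits that leave out 1 mouse), and the phosphofructokinase gene Pfkl (-0.20, FDR 0.0181) and the phosphoglycerate mutase gene Pgam1 (-0.12, FDR 0.0548) were lower. Of the enzyme genes named here outside the 9, Aldh1l1, Aldh7a1 and Eno1 were called in all 27 alternative fits. With the marker covariates the others were not called, apart from Aldh1l2, which was not followed through these fits.

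Within lines, the 9 genes were compared with the distance each mouse traveled per day in the home cage during re-phenotyping. None of the 18 relations passed an adjusted p of 0.1. The smallest unadjusted p for r was that of Btbd9 in Control mice (r 0.763, permutation test p = 0.00990, adjusted 0.178), with rho of 0.624 (p = 0.0596, adjusted 0.296). Without mice 411 and 407, the farthest from the median distance, r was 0.318, so this value rests on those mice. For rho it was that of Hagh in High-Active mice (rho 0.806, p = 0.00755, adjusted 0.136), with r of 0.511 (p = 0.132, adjusted 0.397) and of 0.733 without mice 483 and 905. For Glo1, r was 0.383 in Control mice (p = 0.273, adjusted 0.477) and -0.231 in High-Active mice (p = 0.440, adjusted 0.590), with rho of 0.297 (p = 0.406, adjusted 0.655) and 0.212 (p = 0.559, adjusted 0.671), and r without the same mice was 0.327 and 0.661.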

How the data were processed

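The authors deposited 1 table of gene counts per mouse, whole numbers of reads on Ensembl genes without normalization. They prepared stranded libraries, sequenced them in 100 bp paired-end format and aligned the reads to GRCm38. The submitters' processing notes name CASAVA 1.8.2, TopHat2 2.0.10, Bowtie2 2.1.0, SAMtools 0.1.19 and HTSeq 0.6.1. Entries without a gene (reads on no feature 8.17 to 9.55%, ambiguous 1.39 to 1.66%, not unique 5.70 to 7.01%, of the sum of all entries of a table) were left out. Symbols came from the GENCODE annotation of GRCm38. Sequence windows came from RefSeq.

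Genes above 1 CPM in at least 3 mice were kept, normalized by TMM and tested with edgeR 4.0.16 (R 4.3.3) by the quasi-likelihood test in 1 fit of 4 group means. FDR is the Benjamini-Hochberg adjusted p over the 14792 genes, with a threshold of 0.1. Single values are log2 CPM with a prior count of 2, compared two-sided by exact permutation (5 against 5) or 100000 regroupings (10 against 10) in Python 3.11.15 with scipy 1.17.1. Relations used 100000 permutations within a line and were adjusted within each family of relations.

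Alternatives were RLE normalization, no filter on low counts, the filter in 5 mice, DESeq2 1.42.0, the likelihood-ratio test with robust dispersions, limma-voom (limma 3.58.1) with the family as a block, marker covariates, a prior count of 0.5, and leaving out each mouse. The code was tested on simulated data. No 2 libraries held identical counts. Separate animals were the replicates, and those of the same parents are not independent. The reads of PCR-amplified libraries are not independent molecules.

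The members and gene lists were chosen with earlier results of these data known. Named genes were the 9 members, the called genes of each enzyme list (at most 4, by p), the called neighbours within 1 Mb, and the 5 genes most like Glo1 by each measure. Gm13443, Zfand3, Abcg1, Aldh1l2, Aldh1a2, Aldh1a3 and Akr1b8, and the low markers Slc6a3, Pitx3, En1, Folr1, Kcne2 and Aqp1, were named outside this rule after their values were seen. Marker lists were otherwise used only as sums and, for the covariates, as the mean log2 CPM of their genes.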

Additional observations from a re-analysis of the deposited data

Results flagged for a closer look

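The response of Glo1 to amphetamine differed between the lines by -0.84 in log2 CPM (exact permutation within lines, p = 0.0186, n = 5 per group), the mean after amphetamine being above that after saline in Control and below it in High-Active mice, with overlapping groups in both lines. It was the 1 gene of the 9 with a p under 0.05 in this test, and p was not adjusted over the 9 genes. Its FDR in the quasi-likelihood test was 1.0. In that test 2.97% of all genes had an unadjusted p under 0.05 for the interaction.

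In 3 of 36 groups (9 genes in 4 groups each) a single mouse lay far from the others of its group, where chance gives about 1 in 20. Btbd9 in Control amphetamine mouse 407 was at 6.50 in log2 CPM (90.7 CPM), against 6.05 to 6.14 in the other 4 mice. Akr1b3 in Control amphetamine mouse 454 was at 4.76 (27.0 CPM), against 4.25 to 4.37. Akr1a1 in High-Active amphetamine mouse 905 was at 7.57 (190 CPM), against 7.79 in each of the other 4 mice.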

How the results depend on the processing

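Glo1, Aldh1a1 and Btbd9 were called for the line effect, and the other 6 genes were not, under all 7 other settings and without each of the 20 mice. The labels give no replicate numbers that pair the mice, but 6 families held mice of both treatments; with the family as a block in limma-voom the estimated correlation was 0.0264, and none of the 9 genes was called for amphetamine or the interaction. Over all genes, the line effect gave 2149 calls, 553 in saline mice and 193 in amphetamine mice, and the amphetamine effect, the effect in either line and the interaction gave 0. With the marker covariates the first 3 counts were 326, 44 and 55, members called were 2 in saline and 0 in amphetamine mice, Hagh turned from -0.02 to 0.026, and neighbours called fell from 4 to 2 and genes of the enzyme lists from 16 to 4. With DESeq2 the counts were 1111 in saline mice, 462 in amphetamine mice, 391 for amphetamine, 6 in Control and 131 in High-Active mice, with 2 members in saline and 2 in amphetamine mice. With the likelihood-ratio test they were 1091, 506, 458, 45 and 280, and 6 for the interaction, with 3 members in saline and 2 in amphetamine mice, 1 for amphetamine in Control mice and 1 for the interaction, and 25 enzymes of the lists. limma-voom called 2 members in saline mice. The cause of these shifts was not tested. Of the relations to Glo1, 1 passed, and 0 with treatment means subtracted. Without 1 mouse, the line effect gave 1381 (without 415) to 2535 calls (without 477), saline mice 187 (without 883) to 691 (without 477) with 1 to 2 members, amphetamine mice 79 (without 415) to 200 (without 197) with 0 to 2 members, amphetamine 0 to 339 (without 415), 0 to 3 in Control (without 411) and 0 to 68 in High-Active mice (without 415), and the interaction 0 to 1 (without 411). The line effect of Akr1a1 then ran from -0.018 to 0.025, relations to Glo1 from 0 (without 448) to 2 (without 454), and those to distance from 0 to 2 (without 499). Groups of 5 mice limit the exact tests to a smallest p of 0.00794. A count of 0 allows up to 3 counts, at most 9.26e-06% of a library.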

Other observations

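Aldh1a2, a retinaldehyde dehydrogenase like Aldh1a1, was at 3.06 CPM ± 1.55 in Control and 2.95 CPM ± 1.73 in High-Active mice (SD, n = 10), and was not called for the line effect. Aldh1a3 and Akr1b8 did not pass the filter on low counts and were not tested, at 0.328 and 0.362 CPM in Control and 0.385 and 0.511 CPM in High-Active mice. These genes were looked at after the values of Aldh1a1 and Akr1b3 had been seen.

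Mouse 487 was the lowest of the High-Active amphetamine mice in Glo1, Btbd9, Hagh and Akr1b3, and mouse 905 was the lowest in Park7, Akr1a1, Akr7a5 and Aldh2.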
